A study of Mus musculus with 3 samples.

Results

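The 35 genes described here code for enzymes and carriers of one-carbon, methionine, serine and threonine metabolism. They were taken by gene symbol from the 31053 genes counted in 3 single-cell RNA libraries of mouse cortical cultures (strain C57BL/6), and sorted into 6 branches: serine synthesis, the folate cycle, the methionine cycle, glycine cleavage, threonine breakdown and methyl acceptors. Of the 35, 19 reached a level of 10 CPM (a gene's UMIs relative to all UMIs of the library) in at least 1 library, against 8031 of all 31053 genes. A UMI is a tag that marks 1 captured RNA molecule, and CPM values here are summed over all cells of a library.

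Each group was 1 library, so no difference between groups has a replicate check, no p-value is given, and the printed intervals (exact, 95%) cover counting error only. Neural stem cells were neurospheres from E14.5 cortex in serum-free Neurobasal with B27, EGF and FGF2, each factor at 20 ng/mL. Astrocytes were kept in DMEM-F12 with B27, Glutamax and 10% heat-inactivated fetal bovine serum. The protocol text covers GLAST-sorted astrocytes of P4 cortex as well as astrocytes made from the neurospheres, and does not say which kind this library holds, while the age label reads E14.5 for all 3. MIM-treated astrocytes had been moved to MIM, a serum-free mix of DMEM-F12 and Neurobasal with B27, N2, FGF2 at 20 ng/mL and up to 6 metabolites, and were collected at day 5 or earlier. The metabolites include 4 amino acids (cysteine, glycine, methionine and threonine) as well as S-adenosylmethionine and putrescine. Which of them this library received, and for how many days, is not given in the sources used here. Treated and untreated astrocytes therefore differ in metabolites, base medium, FGF2 and serum all at once, and these cannot be told apart. All cells were fixed in methanol before the 10x Genomics droplet step.

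One-carbon metabolism moves single carbon units, carried on folate, from serine and glycine to purines, to thymidylate and to homocysteine, which becomes methionine. Methionine is turned into S-adenosylmethionine, the methyl donor of methyltransferases, and the spent donor is cleaved back to homocysteine. Serine itself is made from a glycolysis intermediate. In the brain this synthesis is known mainly from radial glia and astrocytes, and mouse pluripotent cells are known to draw glycine and acetyl-CoA from threonine.

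The libraries held 9145, 9818 and 14964 cells after filtering, in the order neural stem cells, astrocytes, MIM-treated astrocytes, with 14689259, 50594420 and 50906724 UMIs and medians of 1379, 5089 and 3156 UMIs per cell. Malat1 took 26.9%, 13.7% and 9.44% of UMIs in the same order, and ribosomal protein genes 11.6%, 2.87% and 8.39%. Pairs of libraries had between 25 and 43 cell barcodes in common. Defining markers went with the labels only in part. The 10 astrocyte markers summed to 1515, 2994 and 1566 CPM, and the 10 stem cell or radial glia markers to 5220, 4807 and 10940. Gfap (1.16, 271 and 4.05 CPM) and Aqp4 (11.9, 566 and 22.9) were highest in the astrocytes, but Sox9 (413, 256 and 98.6), Slc1a3 (385, 206 and 363) and S100b (31.0, 11.8 and 87.8) were not. Among stem cell markers Egfr (131, 4.96 and 50.2 CPM) was lowest in the astrocytes and Vim (482, 2691 and 431) highest. The 10 oligodendrocyte lineage markers summed to 949, 230 and 701 CPM in that order, and the 9 mural or fibroblast markers to 11.3, 295 and 5.13 CPM. In the astrocytes this last sum was nearly all Tagln (249 CPM) and Acta2 (42.9). Every other mural or fibroblast marker was at 2.08 CPM or less there, with Col1a2, Col3a1 and Lum at 0. Microglia and endothelial markers summed to at most 1.38 CPM in any library, with Cx3cr1, C1qa, Cldn5 and Cdh5 at 0 UMIs in all 3. The part of these marker differences in the members' values was not tested, except where cells were split by cluster below. In summed libraries, fewer cells of a type and less RNA per cell cannot be told apart.

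MIM-treated astrocytes had more Psph, Shmt2 and Mthfd2 RNA and less Mat2a and Ahcyl2 RNA than untreated astrocytes. Psph was at 306 CPM against 103 (2.96-fold, interval 2.87 to 3.06). Ahcyl2 was at 31.3 CPM against 76.8 (2.45-fold lower, interval 2.31 to 2.60). Phgdh, which opens serine synthesis, was at 194 CPM against 237. Within the treated library Mthfd2, Shmt2 and Psph were also higher in dividing than in other cells (6.87-fold, 2.03-fold and 1.72-fold), and that library held more dividing cells than the untreated one.

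Promoter sequence is shown for 5 of the 6 members called higher in MIM-treated astrocytes over neural stem cells. A call needed 10 CPM in either library and a ratio of about 2-fold or more. Pemt (3.19-fold) and Aldh1l2 (2.69-fold) were also higher there, but under 10 CPM in both libraries and so not compared. The 6 were of 19 members compared, beside 12.5% of all genes compared. No other comparison had as many members called higher, while over all genes the largest share was in astrocytes over neural stem cells (24.2%). The sequences are from RefSeq (GRCm38.p6), run 5′ to 3′ on the gene's strand, and end at the RefSeq start of the gene or at the first base of a GENCODE vM21 exon. The Psat1 and Mthfd2 windows lie inside the wider span that GENCODE gives those genes. Capitals mark CCAAT boxes, read as CCAAT or, on the other strand, ATTGG. The Psph window is not shown because annotated exons cover it, and it held 2 CCAAT matches.
Psat1, chr19:15925060-15925309, minus strand: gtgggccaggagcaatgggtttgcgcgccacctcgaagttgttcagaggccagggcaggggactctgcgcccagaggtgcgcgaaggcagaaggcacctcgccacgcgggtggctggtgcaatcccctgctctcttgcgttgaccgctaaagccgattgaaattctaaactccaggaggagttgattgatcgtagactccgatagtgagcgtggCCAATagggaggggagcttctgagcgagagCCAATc
Shmt2, chr10:127522445-127522694, minus strand: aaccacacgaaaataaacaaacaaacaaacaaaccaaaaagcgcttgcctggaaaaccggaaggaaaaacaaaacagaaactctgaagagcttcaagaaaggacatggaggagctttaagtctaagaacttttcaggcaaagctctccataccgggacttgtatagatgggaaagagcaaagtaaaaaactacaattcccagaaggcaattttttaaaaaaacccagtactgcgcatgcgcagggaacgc
Mthfd2, chr6:83317607-83317854, minus strand: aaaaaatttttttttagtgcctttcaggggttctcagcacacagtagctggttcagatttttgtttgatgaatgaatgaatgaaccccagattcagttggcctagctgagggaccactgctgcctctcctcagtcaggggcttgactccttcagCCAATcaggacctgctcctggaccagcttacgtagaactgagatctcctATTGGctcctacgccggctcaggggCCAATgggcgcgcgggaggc
Gcsh, chr8:116993538-116993748, minus strand: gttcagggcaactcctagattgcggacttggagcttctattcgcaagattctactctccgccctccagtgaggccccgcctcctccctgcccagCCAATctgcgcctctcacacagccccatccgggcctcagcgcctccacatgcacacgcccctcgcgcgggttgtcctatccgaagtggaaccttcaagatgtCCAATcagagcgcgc
Gcat, chr15:79030624-79030873, plus strand: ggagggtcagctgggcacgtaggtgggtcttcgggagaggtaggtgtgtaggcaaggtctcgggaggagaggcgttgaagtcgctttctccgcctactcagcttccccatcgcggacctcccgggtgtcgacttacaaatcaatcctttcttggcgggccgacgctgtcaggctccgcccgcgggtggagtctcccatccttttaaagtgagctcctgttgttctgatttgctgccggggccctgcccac

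Mthfd2 has 3 CCAAT boxes near its start, Psat1 and Gcsh have 2 each, and Shmt2 and Gcat have 0 in these letters. Psat1 has 2 RefSeq windows, of which 1, the window shown, holds CCAAT. Of the 35 members, 31 had a RefSeq entry, with 39 windows of 250 bases. A CCAAT on either strand was found in 21 of 39 member windows (53.8%) and in 33.8% of all 32851 windows. At least 2 were found in 17.9% of member windows and in 10.1% of all. TGATGNAA on either strand, a core of the sites bound by ATF4 with C/EBP factors, was in 0 of 39 member windows and in 3.45% of all windows, and CACGTG, an E-box, in 0 of 39 and in 6.02%. These are matches of letters, and say nothing of binding.

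Levels below are given in the order neurospheres, untreated astrocytes, MIM-treated astrocytes. The 3 genes of serine synthesis summed to 311, 411 and 583 CPM, and Psph was the one of the 3 that differed most between the astrocyte libraries. Phgdh (chr3:98313170-98339990, mm10), the dehydrogenase that commits 3-phosphoglycerate to the pathway, was at 217 CPM (interval 209 to 224), 237 (233 to 241) and 194 (190 to 198). The 3 levels lay within 1.22-fold of each other. Parts of the 3′ end of Phgdh are shared with processed pseudogenes that the counting did not list, up to 47.3% of its 60-base windows with Gm7901, so its level is uncertain to that extent. Psat1 (chr19:15904678-15947337), the aminotransferase of the next step, was at 25.5 CPM (23.0 to 28.2), 70.9 (68.6 to 73.3) and 83.2 (80.7 to 85.7). Both astrocyte libraries were high and the neurospheres low. Psph (chr5:129765558-129787449), the phosphatase that releases serine, was at 69.0 CPM (64.8 to 73.4), 103 (100 to 106) and 306 (301 to 311). Psph was high in the treated library and lowest in the neurospheres, with no interval overlapping another. It overlaps Cct6a on the opposite strand, a gene not analysed here.

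**Figure D1:**
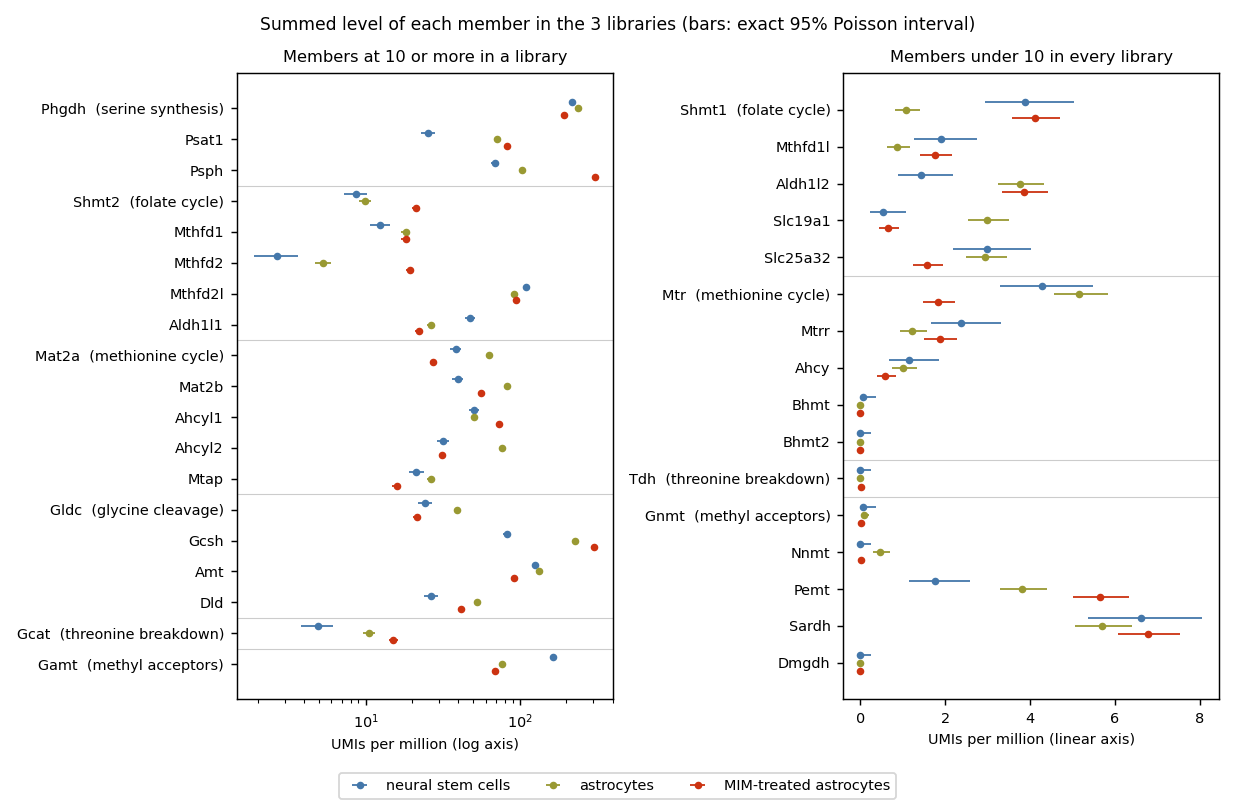
Level of each of the 35 members, in CPM, in neural stem cells (blue), astrocytes (olive) and MIM-treated astrocytes (red), with exact 95% Poisson intervals as bars. The left panel has a log axis and holds the 19 members at 10 or more in some library, and the right panel has a linear axis and holds the other 16. In the left panel, red lies to the right of olive by 2-fold or more for Psph, Mthfd2 and Shmt2. Olive lies to the right of red by 2-fold or more for Mat2a and Ahcyl2.

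In the folate cycle, the mitochondrial enzymes Shmt2 and Mthfd2 were high in MIM-treated astrocytes, while most other members were alike or low there. Shmt2 (chr10:127517123-127522444), which splits serine into glycine and a folate-bound carbon in mitochondria, was at 8.65 CPM (7.21 to 10.3), 9.94 (9.09 to 10.8) and 21.3 (20.0 to 22.6). The first 2 levels did not differ beyond their intervals. Mthfd2 (chr6:83305691-83325908), the mitochondrial methylene-tetrahydrofolate dehydrogenase, was at 2.65 CPM (1.89 to 3.63), 5.32 (4.70 to 5.99) and 19.5 (18.3 to 20.8). It rests on 39, 269 and 993 UMIs. Its relative Mthfd2l was at 110, 91.1 and 94.5 CPM, with the astrocyte and MIM-treated intervals overlapping. Mthfd1, the cytosolic enzyme of the same steps, was at 12.4, 18.2 and 18.2 CPM. Aldh1l1 (chr6:90486427-90600203), which oxidises 10-formyl-tetrahydrofolate and is in wide use as an astrocyte marker, was at 47.6 CPM (44.1 to 51.2), 26.4 (25.0 to 27.9) and 22.1 (20.8 to 23.4). It was thus highest in the neurospheres.

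The other 5 folate members were under 10 CPM in every library. Shmt1, the cytosolic counterpart of Shmt2, had 57, 55 and 209 UMIs (3.88, 1.09 and 4.11 CPM), low in astrocytes and alike in the other 2 libraries. Slc19a1, the reduced folate carrier, had 8, 151 and 33 UMIs (0.545, 2.98 and 0.648 CPM), with the astrocytes high. Slc25a32, the mitochondrial folate carrier, was at 3.00, 2.94 and 1.57 CPM. Mthfd1l stayed at 1.91 CPM or less, and Aldh1l2 at 3.85 or less. Where members overlap a gene on the opposite strand, no source used here says whether strand was counted. Such partners are D10Wsu102e for Aldh1l2 (402, 720 and 656 UMIs), Smcr8 for Shmt1 (43, 57 and 65) and Ndufa4l2 for Shmt2 (4, 68 and 29), and these members are uncertain to that extent.

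Of the 5 methionine-cycle members at 10 CPM, Mat2a, Mat2b, Ahcyl2 and Mtap had their highest level in untreated astrocytes, and Ahcyl1 did not. The 10 genes summed to 189, 306 and 208 CPM. Mat2a (chr6:72432799-72439558), the catalytic subunit that makes S-adenosylmethionine, was at 38.5 CPM (35.4 to 41.8), 62.9 (60.7 to 65.1) and 27.5 (26.1 to 29.0), lowest in the treated library. Mat2b, its regulatory subunit, was at 39.6, 82.3 and 55.7 CPM. Ahcyl2 (chr6:29768011-29912310), a relative of the S-adenosylhomocysteine hydrolase, was at 31.7 CPM (28.8 to 34.7), 76.8 (74.4 to 79.3) and 31.3 (29.8 to 32.9). Neural stem cells and MIM-treated astrocytes did not differ in Ahcyl2 beyond their intervals (ratio 0.990, interval 0.892 to 1.10). Its neighbour in the family, Ahcyl1, went the other way, at 50.4, 50.5 and 73.1 CPM. Mtap, which salvages methionine from the by-product of polyamine synthesis, was at 21.3, 26.4 and 16.0 CPM.

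The enzymes that remethylate homocysteine were scarce. Mtr, the cobalamin-dependent methionine synthase, was at 4.29, 5.16 and 1.83 CPM, and Mtrr, its reductase, at 2.38, 1.23 and 1.87. Ahcy, the hydrolase itself, had 17, 51 and 30 UMIs, but 55.9% of the 60-base windows near its 3′ end are shared with the annotated copy Gm4737, so reads of Ahcy could be lost and its level is uncertain. Bhmt had 1, 0 and 0 UMIs and shares 41.0% of such windows with Gm5096, and Bhmt2 had 0 UMIs in all 3 libraries. A count of 0 (limit of 3 counts) allows up to 0.204, 0.0593 and 0.0589 CPM.

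The glycine cleavage system breaks glycine down in mitochondria and hands a carbon to folate. Its carrier Gcsh (chr8:116981810-116993537) was at 82.4 CPM (77.9 to 87.2), 229 (224 to 233) and 301 (297 to 306). Its decarboxylase Gldc (chr19:30098447-30175429) was at 24.4 CPM (22.0 to 27.1), 39.1 (37.4 to 40.9) and 21.6 (20.3 to 22.9). So the carrier was highest, and the decarboxylase lowest, in the treated library, although the Gldc intervals of neural stem cells and MIM-treated astrocytes overlapped. Amt, the aminomethyltransferase, was at 125, 134 and 91.9 CPM. Dld, a dehydrogenase shared with pyruvate dehydrogenase and other complexes, was at 26.6, 52.6 and 41.4 CPM. The 4 genes summed to 259, 454 and 456 CPM, in which the astrocyte and MIM-treated intervals overlapped.

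Of threonine breakdown, the first enzyme was all but unseen. Tdh, threonine dehydrogenase, had 0, 0 and 1 UMIs. Gcat (chr15:79030874-79038353), the ligase that would act on its product to give glycine and acetyl-CoA, was at 4.90 CPM (3.84 to 6.17), 10.6 (9.70 to 11.5) and 15.2 (14.1 to 16.3), on 72, 535 and 772 UMIs. It shares 12.8% of its 60-base windows near the 3′ end with Galr3. A second gene named Gcat overlaps it on the same strand, and the sequence shared by these was not measured. The level of Gcat is therefore uncertain, to an extent not known. Gcat was therefore counted in all 3 libraries with hardly any Tdh beside it. Threonine was on the list of metabolites for MIM.

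Among methyl acceptors, Gamt (chr10:80258151-80261012), which methylates guanidinoacetate to creatine, was at 164 CPM (158 to 171), 76.8 (74.4 to 79.3) and 68.6 (66.4 to 70.9). The neurospheres were high and both astrocyte libraries low. Pemt, which makes phosphatidylcholine, was at 1.77, 3.81 and 5.64 CPM, and Sardh, sarcosine dehydrogenase, at 6.60, 5.69 and 6.78 with all intervals overlapping. Nnmt, which methylates nicotinamide, had 0, 24 and 1 UMIs. Gnmt had 1, 4 and 1 UMIs and Dmgdh 0 in each library.

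For comparisons, a member was compared when it reached 10 CPM in either library, and called higher or lower when the log2 ratio of CPM + 1 was at least 1 in size, that is about 2-fold. The 3 comparisons share libraries, so their values are set side by side and are not independent.

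Between MIM-treated and untreated astrocytes, 3 of the 19 members compared were called higher and 2 lower, beside 11.2% of 6980 genes called higher and 19.1% called lower. That is 15.8% and 10.5% of the members. In either direction 5 of 19 were called, beside 30.3% of genes. The members' median log2 ratio was -0.16, against -0.20 over all genes compared. Psph (log2 ratio 1.56), Shmt2 (1.02) and Mthfd2 (1.70) were higher, Mthfd2 by 3.67-fold (interval 3.2 to 4.21) and Shmt2 by 2.14-fold (1.92 to 2.38). Mat2a (-1.17) was 2.29-fold lower (2.15 to 2.44) and Ahcyl2 (-1.27) 2.45-fold lower. Next below the 2-fold size came Gldc (log2 ratio -0.83), Mtap (-0.70), Mat2b (-0.56) and Amt (-0.54), all toward lower values, and Ahcyl1 (0.53) toward higher. Psph and Ahcyl2 kept their calls under all 12 alternative settings, Mat2a lost it with TMM scaling (-0.93) and with a pseudocount of 10 CPM (-0.96), and Shmt2 lost it under 7 settings (down to 0.52), among them a minimum of 50 CPM, which it does not reach. Mthfd2 lost its call under 3 settings, that minimum, a pseudocount of 10 CPM and cells with 0 division UMIs, where its log2 ratio was 0.17.

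Between astrocytes and neural stem cells, 4 of 17 members were called higher and 1 lower, beside 24.2% of 7919 genes called higher and 25.1% lower (49.3% in either direction). The members' median was 0.57, against 0.03 over all genes. Gcsh (log2 ratio 1.46) was 2.77-fold higher in astrocytes (2.61 to 2.94), Psat1 (1.44) 2.78-fold (2.50 to 3.1), Ahcyl2 (1.25) 2.43-fold (2.20 to 2.68) and Mat2b (1.04) 2.08-fold (1.91 to 2.27). Gamt (-1.09) was 2.14-fold lower (2.03 to 2.25). Gcat (0.97), Dld (0.96) and Aldh1l1 (-0.82) stood just under the size for a call. Of the 5 methionine-cycle and 4 glycine cleavage members compared, none was called lower. With Malat1 left out of the totals, which moved the median of all genes by -0.23, Ahcyl1 turned to -0.23 and Amt to -0.14, and Mat2b (0.81) lost its call. Under TMM scaling Gamt (-0.92) lost its call.

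Between MIM-treated astrocytes and neural stem cells, 6 of 19 members were called higher and 2 lower, beside 12.5% of 7294 genes higher and 22.6% lower (35.1% in either direction). The share called higher was thus 31.6% of members. The median was 0.48, against -0.16 over all genes. Mthfd2 (log2 ratio 2.49) was 7.35-fold higher (5.34 to 10.4), Psph (2.13) 4.43-fold (4.16 to 4.73) and Gcsh (1.86) 3.65-fold (3.45 to 3.88). Psat1 (1.67) was 3.26-fold higher (2.93 to 3.63), Gcat (1.45) 3.09-fold (2.43 to 4.00) and Shmt2 (1.21) 2.46-fold (2.04 to 2.98). With a pseudocount of 10 CPM, Gcat (0.76) and Shmt2 (0.75) lost their calls, and Shmt2 also lost it with Malat1 left out of the totals. Over all genes, the 911 called higher became 585 and 535 under these settings, in that order. Gamt (-1.25) was 2.39-fold lower (2.27 to 2.52) and Aldh1l1 (-1.07) 2.15-fold lower (1.95 to 2.37), and under TMM scaling, which moved the median of all genes by 0.38, neither was called (-0.85 and -0.68). In cells with 0 division UMIs Mthfd2 stood at a log2 ratio of 1.12 and under 10 CPM in both libraries (6.15 and 2.28), and Shmt2 at 0.83, so that neither was called there. Of the 6 called higher, Psat1 and Gcsh were also higher in untreated astrocytes over neural stem cells, and the Psat1 level differed only 1.17-fold between the astrocyte libraries.

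**Figure D2:**
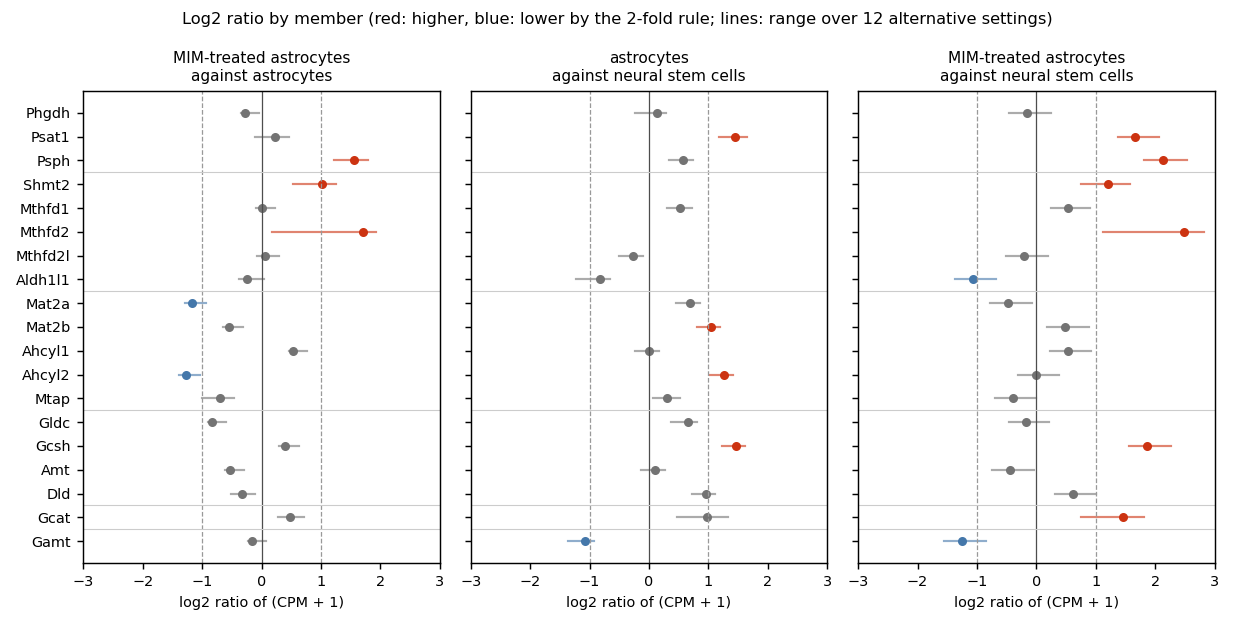
Log2 ratio of CPM + 1 for each compared member in the 3 comparisons, by branch. Points are the reported values, red where called higher and blue where called lower, dashed lines mark the 2-fold size, and horizontal lines span the 12 alternative settings. The Mthfd2 line in the first panel reaches from 0.17 to 1.92, and the Psph line from 1.21 to 1.80.

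**Figure D3:**
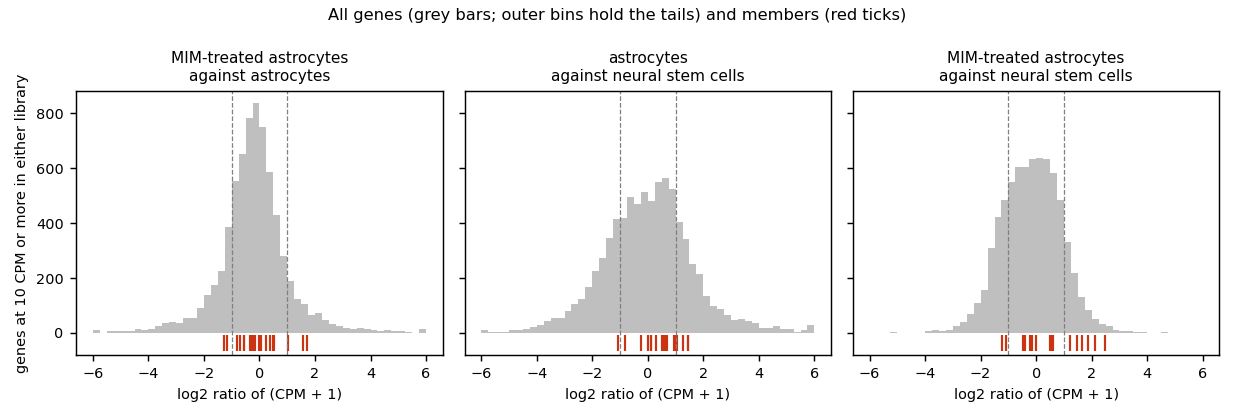
Number of genes by log2 ratio of CPM + 1 in each comparison (grey bars, genes at 10 CPM in either library) with the members as red ticks under the axis. In the first panel the members lie between -1.27 and 1.70, within the spread of all genes, and in the last panel 6 ticks stand right of the dashed line at 1.

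The libraries differed in their share of dividing cells, and several members differed between dividing and other cells. Cells of at least 1000 UMIs were drawn down to 1000, and those with 3 or more UMIs of a 59-gene cell division list made up 7.71% of neurosphere cells (exact binomial interval 7.13 to 8.33), 0.0528% of astrocytes (0.0172 to 0.123) and 29.3% of MIM-treated astrocytes (28.5 to 30.1). Without drawing down, the shares were 9.46%, 3.06% and 38.6%. Cells with 0 division UMIs among the 1000 drawn (0-UMI cells) made up 74.8%, 89.2% and 49.0%. Without drawing down, 65.9%, 57.2% and 29.2% had 0, so many 0-UMI cells did carry some. In the MIM-treated library, Mthfd2 was at 42.2 CPM in cells with 3 or more and at 6.15 in 0-UMI cells, a 6.87-fold difference (5.74 to 8.28). In the 0-UMI cells of the astrocytes Mthfd2 was at 5.33 CPM, so among 0-UMI cells its log2 ratio, treated over untreated, was 0.17. Shmt2 was at 30.8 CPM in dividing and 15.2 in 0-UMI cells of the treated library (2.03-fold, 1.77 to 2.33), and its log2 ratio between the 0-UMI cells of the treated and untreated libraries was 0.52. Psph was at 414 and 241 CPM (1.72-fold, 1.66 to 1.78), and its ratio among 0-UMI cells was still 1.21. Mat2a (31.0 and 25.7 CPM) and Ahcyl2 (24.5 and 37.1) stayed lower in the treated library among 0-UMI cells, with log2 ratios of -1.27 and -1.03.

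Other members also followed the division class. Shmt1, the cytosolic enzyme next to thymidylate synthesis, was at 9.48 CPM in dividing and 1.13 in 0-UMI cells of the treated library (8.42-fold, 5.55 to 13.3), and at 13.5 and 2.59 CPM in neural stem cells (5.22-fold, 2.75 to 9.78). Gcat was at 15.5 and 3.83 CPM in neural stem cells (4.05-fold, 2.30 to 7.0) but at 17.8 and 13.1 in treated astrocytes (1.36-fold, 1.16 to 1.60). Aldh1l1 was lower in dividing treated astrocytes (14.9 against 27.1 CPM), as were Amt (69.2 against 106) and Gamt (51.4 against 79.1), all short of 2-fold. By the size rule, 3 of 19 members were higher in dividing neural stem cells (Shmt1, Mthfd1, Gcat), beside 6.48% of genes, and 1 of 19 in dividing treated astrocytes (Mthfd2), beside 9.02%. No member was called lower in either library, beside 1.86% and 1.39% of genes. With 5 or more division UMIs, a limit chosen after seeing the data, the counts were 3 beside 7.25% and 2 beside 9.7%, with 0 lower beside 3.2% and 1.85%. Cells with more division UMIs were also deeper, at medians of 2178 against 1453 UMIs in neural stem cells and 4129 against 3184 in treated astrocytes.

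**Figure D4:**
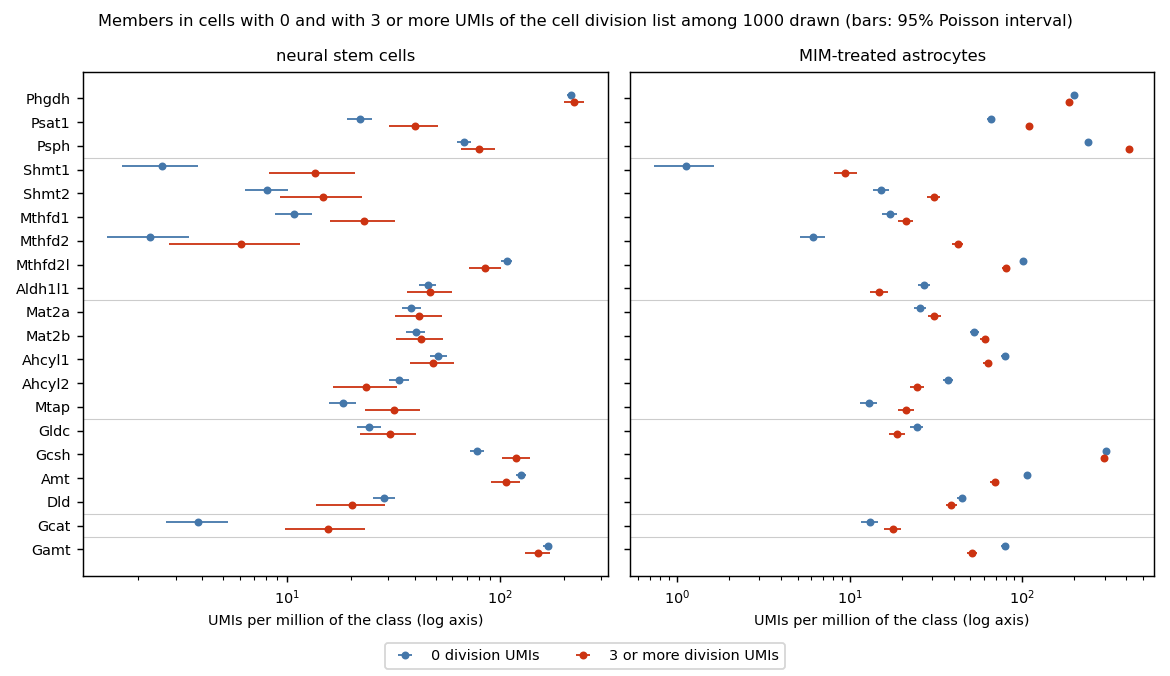
Members in cells with 0 (blue) and with 3 or more (red) UMIs of the cell division list, in CPM of the class on a log axis, with exact 95% Poisson intervals; neural stem cells on the left and MIM-treated astrocytes on the right. Mthfd2, Shmt1 and Shmt2 lie clearly right in red in the treated library, and Aldh1l1, Amt and Gamt to the left.

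Members also differed between clusters of cells within a library. Clusters were made without the members, and described by the genes that set them apart. The neurosphere library held a neural stem or radial glia-like cluster (4066 cells), an oligodendrocyte lineage-like cluster (3011), an astrocyte-like cluster (1203), a cell division-like cluster (610) and an unnamed one (255). Phgdh was at 231 CPM in the stem-like, 356 in the astrocyte-like and 53.2 in the oligodendrocyte lineage-like cells. Aldh1l1 was at 62.3, 79.3 and 5.22 CPM in the same clusters, Gldc at 28.1, 36.1 and 9.45, and Gamt at 213, 166 and 70.2. Of the 5 clusters, the oligodendrocyte lineage-like one was lowest in all of these, and at 128 CPM it was highest in Mthfd2l. Mat2a was level, from 35.7 to 43.0 CPM over the 5 clusters. The unnamed cluster, with 627 CPM of Phgdh and 66.7 of Psat1, was led by Ubb and Jund.

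The oligodendrocyte lineage-like cluster of the MIM-treated library (3403 cells) was lowest of the clusters with 200 or more cells in Phgdh, Psat1, Psph, Aldh1l1 and Gldc, and highest in Mthfd2l (146 CPM). Psph was at 183 CPM there, 247 in the largest cluster (5144 unnamed cells led by Sparcl1 and Aldoc) and 411 in the cell division-like cluster (2872 cells). Aldh1l1 was at 9.92, 31.8 and 15.4 CPM in the same clusters, Gldc at 10.6, 28.8 and 18.4, and Psat1 at 47.6, 69.0 and 109. Phgdh differed less there, at 149, 208 and 186 CPM. Mthfd2 was at 48.6 CPM in the cell division-like cluster and 5.91 in the largest one. In the astrocyte library Gldc was at 72.4 CPM in 1365 unnamed cells led by Chgb and Nnat and at 29.3 CPM in 662 unnamed cells led by Phlda3 and Cdkn1a.

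Between the highest and lowest cluster, 12 of 16 members were at least 2-fold apart with separate intervals in neural stem cells, beside 46.6% of genes at 10 CPM there. The counts were 6 of 17 in astrocytes, beside 33.6%, and 11 of 19 in MIM-treated astrocytes, beside 38.1%. Cells of a library are not replicates, and with a finer clustering the counts were 13, 3 and 16. Without the shallowest clusters (medians of 741 and 801 UMIs), they were 4 in astrocytes and 9 in MIM-treated astrocytes. That setting was chosen after seeing the data. The share over all genes was not taken for these other settings. With the oligodendrocyte lineage-like clusters left out, the calls between MIM-treated and untreated astrocytes were the same 5 genes, Mat2b (0.97) was no longer called between astrocytes and neural stem cells, and Aldh1l1 (-1.23) was.

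**Figure D5:**
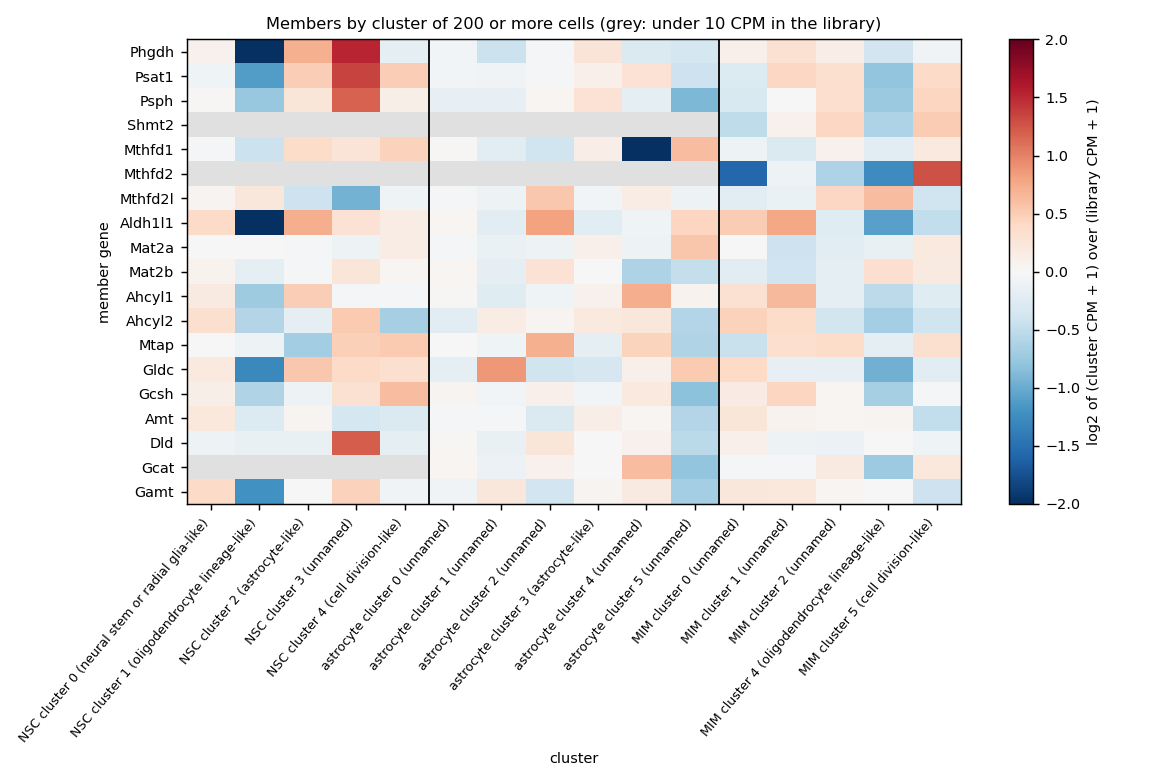
Members (rows) by cluster of 200 or more cells (columns, grouped by library), as the log2 ratio of the cluster level to the library level, with 1 CPM added to each; grey marks members under 10 CPM in that library. The oligodendrocyte lineage-like columns are blue for Aldh1l1 and Gldc in both libraries that hold such a cluster, and Mthfd2 is red in the cell division-like column of the MIM-treated library.

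Of 49 further genes of these pathways, 31 were compared between MIM-treated and untreated astrocytes, with 4 higher and 6 lower. That is 12.9% and 19.4%, close to the 11.2% and 19.1% of all genes. Their median log2 ratio was -0.35, against -0.20 over all genes. Gatm, which makes the guanidinoacetate that Gamt methylates, was at 34.0, 0.632 and 60.3 CPM (log2 ratio 5.23, treated over untreated, on 3070 and 32 UMIs). Gamt, by contrast, was at 76.8 and 68.6 CPM in the astrocyte libraries. Folr1, a folate receptor, was at 0.136, 27.2 and 0.314 CPM (-4.42). Tyms, thymidylate synthase, was at 20.8, 5.02 and 94.1 CPM (3.98). In the treated library Tyms was at 227 CPM in dividing against 17.3 in 0-UMI cells. Gatm was at 67.4 and 55.9 CPM in these classes and Slc6a9, a glycine transporter, at 16.5 and 15.9. Slc6a9 was at 12.7, 2.49 and 15.8 CPM in the 3 libraries (2.26). Sdsl, related to serine dehydratase, was at 0.885, 59.4 and 13.6 CPM (-2.05). Of the 9 further methionine genes compared, 4 were called lower (Adk, Slc3a2, Slc43a2, Tcn2) and 0 higher, beside 19.1% and 11.2% of all genes. Their median was -0.92, against -0.20 over all genes.

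ATF4, a factor of the amino acid stress response, is known to act on several serine and folate genes, Psph, Psat1, Shmt2 and Mthfd2 among them. Of a list of 25 genes, Atf4 itself and others known as its targets, 15 were compared between the astrocyte libraries, with 1 higher and 3 lower. That is 6.67% and 20.0%, beside 11.2% and 19.1% of all genes. Nars, an asparaginyl-tRNA synthetase, was at 46.5 CPM in untreated and 157 in MIM-treated astrocytes (log2 ratio 1.73). Slc3a2, a subunit of amino acid transporters, was at 267 and 73.4 (-1.85), Cebpb at 137 and 56.5 (-1.27) and Ddit3 at 19.1 and 7.88 (-1.18). The list's median was -0.04, against -0.20 over all genes. Between MIM-treated astrocytes and neural stem cells, 4 of 15 compared were higher and 2 lower. That is 26.7% and 13.3%, beside 12.5% and 22.6% of all genes, with a median of 0.27 against -0.16. Between astrocytes and neural stem cells, 6 of 15 were higher and 2 lower, beside 24.2% and 25.1% of all genes. A part of ATF4 in the members' values was not tested. Slc3a2 and Slc7a5 are also on the list of further pathway genes.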

How the data were processed

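The deposited matrices hold UMI counts per gene and cell barcode, made by the authors with Cell Ranger 3.0.2 on mm10, per the submitters' processing notes, which also name Seurat 3.1.1 with no role. Cells with at least 200 genes and at most 20% mitochondrial UMIs were kept, which removed between 7 and 13 per library. No doublet caller was run, and an alternative left out the 8% deepest cells. UMIs were summed per library. Level intervals are exact Poisson and ratio intervals exact conditional binomial. Log2 ratios had 1 CPM added to each level. Genes at 10 CPM in either library were compared, and a ratio of size 1 was a call. The second row named Gcat had 0, 0 and 1 UMIs and was left out. Cells for division classes had at least 1000 UMIs, which left out 1457 neurosphere, 351 untreated and 973 MIM-treated cells; class levels use all UMIs of the cells. Clusters came from 2000 variable genes (members and further lists left out), 30 components, 15 neighbours and Leiden resolution 0.5 in scanpy 1.11.5, and were named when at least 3 markers of a class were among their top 50 genes and outnumbered those of any other class. The others stayed unnamed, among them the shallowest, with medians of 741 UMIs (astrocytes) and 801 (MIM-treated). Members at 10 CPM in any library are all given, and of the further lists up to 6 genes with the largest called ratios, of which 1 is not reported here. Members and lists were chosen with earlier results of these data known. TMM came from edgeR 4.0.16. Only the 2-fold size rule was tested on simulated counts.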

Additional observations from a re-analysis of the deposited data

How the results depend on the processing

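No paired analysis was possible because each group is 1 library and no test was made. Without replicates, depth limits only counting error, which is wide for members under 100 UMIs such as Slc19a1 or Ahcy. No called log2 ratio changed sign under any of the 12 settings, of which leaving out oligodendrocyte lineage-like clusters was chosen after seeing the data. Between MIM-treated and untreated astrocytes, the 3 members called higher were 1 (Psph) with a pseudocount of 10 CPM, with a minimum of 50 CPM and in cells with 0 division UMIs. Over all genes, the 780 called higher became 540, 426 and 550 under these settings, in that order. The 2 members called lower were 1 (Ahcyl2) with TMM or a pseudocount of 10 CPM, and 4 with a minimum of 20 UMIs over both libraries, which added Slc19a1 and Mtr. Over all genes, the 1335 called lower became 980, 742 and 2105 under these settings, in that order. Between astrocytes and neural stem cells, the 1 member called lower (Gamt) was 0 with TMM, and 2 with Malat1 left out of the totals (with Aldh1l1), with a minimum of 20 UMIs (with Shmt1) and without oligodendrocyte lineage-like clusters (with Aldh1l1). Over all genes, the 1990 called lower became 1626, 2714, 3084 and 1959 under these settings, in that order. Between MIM-treated astrocytes and neural stem cells, the 6 members called higher were 3 (Psat1, Psph, Gcsh) with a minimum of 50 CPM, and the 2 called lower were 0 with TMM and 1 (Gamt) with a pseudocount of 10 CPM, a minimum of 50 CPM or in cells with 0 division UMIs. Over all genes, the 911 called higher became 575 with a minimum of 50 CPM. The 1652 called lower became 888, 698, 458 and 1746 under the settings named for lower, in that order. Members higher in dividing treated astrocytes were 2 of 19 (Mthfd2, Shmt2) when dividing meant 5 or more UMIs, chosen after seeing the data. Over all genes outside the division list, 9.7% were higher at that limit. Astrocyte members 2-fold apart between clusters were 3, not 6, at Leiden resolution 1.0. The share of higher among all called genes moved from 36.9% to 52.9% with TMM (treated over untreated astrocytes), from 49.0% to 37.5% without Malat1 (astrocytes over neural stem cells), and from 35.5% to 66.5% with TMM and 16.4% without Malat1 (treated astrocytes over neural stem cells). The cause of these moves was not tested.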
